A study of Mus musculus with 4 samples.

Results

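The insulin-like growth factor (IGF) axis was examined in the epidermis of newborn mice through 10 genes chosen by name, of 54752 genes listed for each library. They are the ligand genes Igf1 and Igf2, the receptor genes Igf1r and Igf2r, and 6 genes for IGF binding proteins (IGFBPs), Igfbp2 to Igfbp7. The 10 genes were chosen with their differences between the genotypes in these libraries known, so those differences are given as a description, with standard errors and without p-values. Epidermis came from 4 C57BL/6 pups at postnatal day 0 (P0). They were 2 pups of genotype Skiv2l fl/fl K14-Cre, called knockouts here, and 2 pups of genotype Skiv2l ctl, called controls. The knockouts have both copies of Skiv2l floxed, the gene of a helicase that feeds RNA to the exosome of the cytoplasm, and express Cre from the keratin 14 promoter, so cells that never expressed keratin 14 keep the gene, and these pups die shortly after birth. The control genotype stands for pups with both copies of Skiv2l floxed but no Cre, with a single floxed copy (fl/+), or with a single floxed copy and K14-Cre, so controls also carry a floxed allele and may carry Cre, and which of the 3 a given pup was is not stated. The comparison asks how RNA levels differ in epidermis when keratinocytes lack SKIV2L.

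IGF-1 and IGF-2 are secreted growth factors that act through the type 1 receptor, a tyrosine kinase related to the insulin receptor, and thereby on the PI3K, AKT and mTORC1 pathway. The type 2 receptor, the cation-independent mannose 6-phosphate receptor, carries IGF-2 to lysosomes and also sorts lysosomal enzymes. IGFBPs bind the ligands outside the cell, where they can hold them back from the receptor or store and carry them, and proteases release the ligands again. In skin, type 1 receptor signalling is known to support keratinocyte proliferation and growth of the hair follicle, and much of the ligand is made by dermal cells.

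The promoters of 4 IGFBP genes are shown because these had the largest differences of the 6 IGFBP genes in either direction, Igfbp5 and Igfbp2 on the lower side and Igfbp7 and Igfbp6 on the higher side. Each sequence runs from 250 bases before to 50 bases after the RefSeq start of the gene on GRCm38.p6, and is written 5′ to 3′ on the strand of the gene. Capitals mark exact matches, on either strand, to 4 motifs. The core promoter element TATA box was searched as TATAAA. The GC box, which SP family factors bind, was searched as GGGCGG. The AP-1 motif of the FOS and JUN factors was searched as TGAGTCA. The motif of the FoxO factors was searched as GTAAACA.
Igfbp5, chr1:72874816-72875115, minus strand: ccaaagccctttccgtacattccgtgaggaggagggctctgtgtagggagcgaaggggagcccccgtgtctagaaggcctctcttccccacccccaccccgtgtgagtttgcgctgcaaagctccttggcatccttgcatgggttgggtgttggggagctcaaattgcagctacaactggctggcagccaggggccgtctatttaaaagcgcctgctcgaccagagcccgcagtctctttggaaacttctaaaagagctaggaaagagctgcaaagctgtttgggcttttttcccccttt
Igfbp2, chr1:72824230-72824529, plus strand: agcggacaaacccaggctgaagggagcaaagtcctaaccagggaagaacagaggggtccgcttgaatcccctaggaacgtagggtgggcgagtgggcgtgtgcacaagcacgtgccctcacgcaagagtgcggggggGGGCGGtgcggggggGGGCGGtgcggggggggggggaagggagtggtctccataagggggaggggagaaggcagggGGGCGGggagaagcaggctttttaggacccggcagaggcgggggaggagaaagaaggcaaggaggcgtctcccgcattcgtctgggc
Igfbp7, chr5:77407996-77408295, minus strand: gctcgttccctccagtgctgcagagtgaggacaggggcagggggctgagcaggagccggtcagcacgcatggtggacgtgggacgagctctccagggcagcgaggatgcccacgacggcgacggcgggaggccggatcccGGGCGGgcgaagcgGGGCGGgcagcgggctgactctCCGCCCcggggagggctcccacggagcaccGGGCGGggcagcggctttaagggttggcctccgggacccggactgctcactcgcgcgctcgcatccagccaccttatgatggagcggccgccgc
Igfbp6, chr15:102143936-102144235, plus strand: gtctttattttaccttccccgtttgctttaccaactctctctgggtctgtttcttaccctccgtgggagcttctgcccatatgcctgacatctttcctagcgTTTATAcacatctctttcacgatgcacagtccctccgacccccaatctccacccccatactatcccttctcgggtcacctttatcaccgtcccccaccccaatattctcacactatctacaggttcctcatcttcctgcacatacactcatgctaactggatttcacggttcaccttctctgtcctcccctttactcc

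The 4 windows had different makeups. The Igfbp7 window held 33 CpG dinucleotides and 4 GC boxes, which begin 110, 96, 74 and 44 bases before the start. The Igfbp2 window held 18 CpG and 3 GC boxes, at 113, 98 and 37 bases before the start, and a further RefSeq start of Igfbp2 has an AP-1 match 39 bases before it. The windows of Igfbp5 and Igfbp6 held 10 and 8 CpG, near the median of 7 over 32851 promoter windows of this length. The Igfbp6 window had a single match, to the TATA box letters at 148 bases before the start, and it lies wholly before the gene start used in the expression tables. The Igfbp5 window had no match to any of the 4 motifs. The matches shown do not overlap each other.

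All 10 genes had at least 1 RefSeq window, 14 windows in all, of which Igf2 has 4. The GC box was found in 35.7% of all windows of this length, and also in those of Igf1r at 43 and 26 bases before the start, of Igf2r at 75, 31 and 25, and in 2 of the 4 Igf2 windows. The TATA box letters occur in 13.6% of all windows and were present 28 bases before the start of Igfbp4. The AP-1 letters occur in 5.2% of all windows and the FoxO letters in 3.65%, and no member window held a FoxO match. Members that were higher and members that were lower in knockouts both included genes with GC boxes, such as Igfbp7 and Igfbp2. Such matches describe the letters of these windows and do not show binding.

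Levels are FPKM, in which the fragments of a gene are divided by transcript length and by the size of the library. The scale is per length, but comparisons between genes also depend on the unit, since deposited coverage, the mean read depth over a gene, stood in other ratios to FPKM for some members than for most genes. The depth is known only through the usual ratio of coverage to FPKM, which under the common definition of these units is the aligned gigabases, was 5.843 to 6.274 over the 4 libraries, and no read counts were used. Keratinocyte markers were abundant in every library, with a summed FPKM of 4729 to 9798 for 7 basal and 18921 to 28291 for 6 suprabasal genes, while 7 endothelial genes summed to 0.585 to 1.19. Skiv2l itself fell from 19.3 and 19.1 to 10.8 and 8.55 FPKM (limma adjusted p = 0.00368). Of 13609 protein-coding genes tested with limma on log2(FPKM + 1), 34.4% were called at an adjusted p under 0.05, 8.99% higher and 25.4% lower in knockouts. The median difference of all tested genes on this log2 scale was -0.20. When libraries were scaled to the same median it was -0.03, and 53.9% of the called genes were then higher in place of 26.1%. Calls rest on the spread that limma shares across genes, since exact permutation of 2 against 2 pups reaches a two-sided p of 0.333 at the lowest, and the pups are the replicates.

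Of the 10 IGF axis genes 9 passed the filter of FPKM above 0.5 in at least 1 library, and Igf1 did not. Of the 9, 5 were called higher in knockouts (Igfbp4, Igfbp6, Igfbp7, Igf1r and Igf2r), 3 were called lower (Igfbp2, Igfbp5 and Igf2) and Igfbp3 was not called. Since the genes were chosen on this contrast, these counts describe them beside the 8.99% and 25.4% of all genes and are not read further. Both knockouts lay above both controls for the 5 and below both for the 3, beside 18.2% and 55.3% of all tested genes. The abundant ligand, Igf2, was on the lower side and both receptors were on the higher side. Which of the 5 and 3 genes were called changed without a control library and without the FPKM filter, so calls do not rank them. Without the filter, Igf2r kept its call and Igfbp6 and Igfbp7 lost theirs. Without the first and the second control, the log2 difference was 1.35 and 1.13 for Igfbp6 and 1.61 and 2.10 for Igfbp7. It was 0.85 and 1.26 for Igfbp4, 1.24 and 1.24 for Igf1r and 0.66 and 0.61 for Igf2r. For Igf2 it stayed negative.

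Igf2 encodes the fetal growth factor IGF-2 and is expressed from the paternal allele (ENSMUSG00000048583.16, chromosome 7, 142650766 to 142666816 on GRCm38, minus strand). Its FPKM was 166 and 145 in controls against 74.4 and 92.1 in knockouts. Both knockout values lay below both controls, and the gene was the most abundant of the 10 in every library. The mean went from 156 ± 14.9 to 83.2 ± 12.5 FPKM (SD, n = 2 each), 1.87 times lower, with a log2 difference of -0.90 (standard error 0.13). Its place among the tested genes moved from percentile 98.2 to 96.1. Exons of Igf2 share 3596 of 5723 bases with those of Gm49394, a gene annotated on the same strand, and Gm49394 was listed at 8.87 FPKM in the first control and at 0.0119, 0 and 0.0321 in the other 3 libraries. Adding its FPKM to that of Igf2 gave 175 and 145 against 74.4 and 92.1, and the groups stayed apart. Dermal fibroblasts are a known source of Igf2, and 10 of their marker genes summed to 169 and 165 FPKM in controls against 68.2 and 86.1 in knockouts. That sum is carried by Postn and Dcn. Of the 6 marker genes tested 3 fell, beside 25.4% of all tested genes, and 2 had a positive log2 difference. In bulk tissue fewer cells of a type and less RNA per cell cannot be told apart, and the part of these cells in the Igf2 values was not tested.

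The other RNAs of the Igf2 region are non-coding and were not part of the test. H19, the maternally expressed RNA that shares its imprinting control with Igf2, was at 1202 and 1323 FPKM in controls against 745 and 873 in knockouts, 1.56 times lower. H19 was thus lower together with Igf2. The ratio of H19 to Igf2 was 7.22 and 9.11 in controls against 10.02 and 9.48 in knockouts, and by coverage it was 14.2 and 17.2 against 21.5 and 20.6. The antisense gene Igf2os, which overlaps Igf2 exons by 98 bases, was at 2.90 and 2.46 against 1.23 and 0.847 FPKM. Whether strand was used in counting is not stated, so antisense and sense reads cannot be told apart where exons overlap.

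Igf1 encodes IGF-1, the ligand whose skin sources are mainly dermal (ENSMUSG00000020053.18, chromosome 10, 87858265 to 87937042, plus strand). It was at 0.290 and 0.213 FPKM in controls against 0.232 and 0.0966 in knockouts. The groups overlap, and the gene was the lowest of the 10 in every library. The insulin genes Ins1 and Ins2 were listed at 0 in all 4 libraries, so of these 4 ligand genes Igf2 alone was abundant in these tables.

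Igf1r encodes the type 1 receptor (ENSMUSG00000005533.10, chromosome 7, 67952827 to 68233668, plus strand). It was at 18.0 and 17.9 FPKM in controls against 34.7 and 55.3 in knockouts. The controls were nearly equal while the knockout pups differed from each other by 1.59 times, the widest spread of the 9 tested genes within that genotype as a ratio, and both lay above both controls. The mean went from 18.0 ± 0.0633 to 45.0 ± 14.6 FPKM (SD, n = 2 each), 2.51 times higher, with a log2 difference of 1.24 (standard error 0.20). Igf1r thereby moved from percentile 73.5 to 91.8 of the tested genes.

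Insr, which encodes the insulin receptor and can pair with the type 1 receptor in hybrids, was at 10.5 and 10.2 FPKM in controls against 9.44 and 11.6 in knockouts. Its log2 difference was 0.01 (standard error 0.12, limma adjusted p = 0.941), and the groups overlap. The ratio of Igf1r to Insr was 1.71 and 1.76 in controls against 3.68 and 4.79 in knockouts, and by coverage 0.867 and 0.955 against 1.91 and 2.67, so the receptor pair was weighted more towards Igf1r in both knockout pups in either unit.

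Igf2r encodes the type 2 receptor, which clears IGF-2, and is expressed from the maternal allele in most mouse tissues (ENSMUSG00000023830.14, chromosome 17, 12682406 to 12769664, minus strand). It was at 12.2 and 11.7 FPKM in controls against 18.5 and 19.6 in knockouts. The groups do not overlap and the pups of each genotype were close to each other. The mean went from 11.9 ± 0.312 to 19.1 ± 0.804 FPKM (SD, n = 2 each), 1.60 times higher, with a log2 difference of 0.63 (standard error 0.09). Airn, the non-coding RNA that silences the paternal Igf2r allele, was at 4.03 and 2.57 against 4.38 and 4.22 FPKM.

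These genes were chosen with their differences known, so the ratios of ligand to receptor RNAs restate those differences for each pup. The ratio of Igf2 to Igf1r by FPKM was 9.23 and 8.10 in controls against 2.14 and 1.66 in knockouts, and by coverage 11.7 and 10.2 against 2.47 and 1.85. The ratio of Igf2 to Igf2r depended on the unit by more than the spread between pups. By FPKM it was 13.7 and 12.4 in controls against 4.02 and 4.69 in knockouts, and by coverage 5.82 and 5.31 against 1.55 and 1.78. Both ratios were lower in knockouts and Igf2 was above both receptors in all 4 libraries, in either unit.

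**Figure D1:**
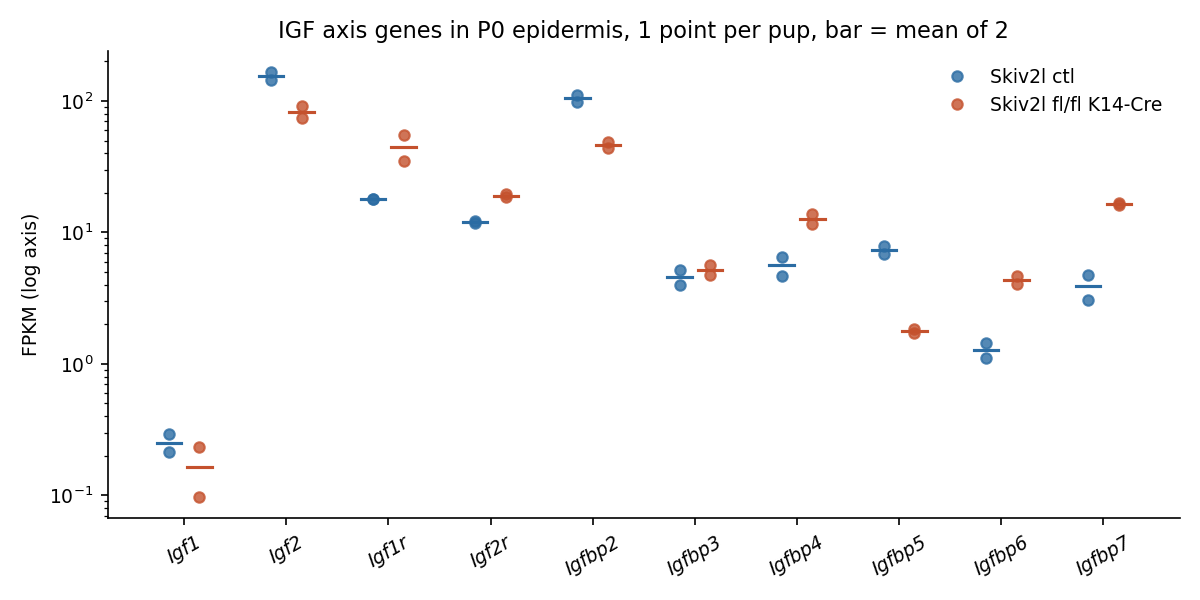
FPKM of the 10 IGF axis genes on a log axis, with 1 point per pup and a bar at the mean of the 2 pups of a genotype (blue, Skiv2l ctl; orange, Skiv2l fl/fl K14-Cre). The genotypes overlap for Igf1 and Igfbp3 and are separate for the other 8 genes, with Igfbp7 at 3.06 and 4.73 against 16.1 and 16.8 and Igfbp5 at 7.84 and 6.90 against 1.84 and 1.72.

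Igfbp2 and Igfbp5 are neighbours on chromosome 1 and both were lower. Igfbp2 encodes a binding protein with a preference for IGF-2 (ENSMUSG00000039323.18, 72824503 to 72852474, plus strand), and its promoter is the one with 3 GC boxes shown above. It was at 110.6 and 98.8 FPKM in controls against 44.2 and 48.5 in knockouts. The values within a genotype were close and the groups far apart, and Igfbp2 had the highest FPKM of the IGFBP genes in every library, which does not hold by coverage. The mean went from 104.7 ± 8.31 to 46.4 ± 3.04 FPKM (SD, n = 2 each), 2.26 times lower, with a log2 difference of -1.16 (standard error 0.10).

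Igfbp5 encodes a binding protein that adheres to the extracellular matrix (ENSMUSG00000026185.8, 72857932 to 72874884, minus strand). It was at 7.84 and 6.90 FPKM in controls against 1.84 and 1.72 in knockouts, with no overlap. The mean was 4.13 times lower, 7.37 ± 0.664 against 1.78 ± 0.0861 (SD, n = 2 each), which took Igfbp5 from percentile 48.2 to 22.9 of the tested genes. The 2 genes point towards each other with 5457 bases between their ends. The gene on the far side of Igfbp2, Rpl37a, which encodes a ribosomal protein, had a log2 difference of -0.29 that did not pass the test (limma adjusted p = 0.0785), and Tnp1 on the far side of Igfbp5 was listed at 0 in all libraries. Over the main fit and 14 alternatives tried, the log2 difference ranged from -1.24 to -0.92 for Igfbp2 and from -1.99 to -1.39 for Igfbp5. These fits share the same libraries.

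Igfbp7, Igfbp6 and Igfbp4 were higher. Igfbp7 encodes a secreted protein that binds IGFs weakly and insulin, and is a known product of vessels and senescent cells (ENSMUSG00000036256.13, chromosome 5, 77349240 to 77408041, minus strand). It was at 3.06 and 4.73 FPKM in controls against 16.1 and 16.8 in knockouts. Both knockout values were above both controls, and the knockout pups were the more alike pair. The mean went from 3.90 ± 1.18 to 16.5 ± 0.449 FPKM (SD, n = 2 each), with a log2 difference of 1.86 (standard error 0.17), the largest of the 9 and rank 190 by size among all 13609 tested genes. Igfbp7 shares 85 exon bases with Polr2b, on the opposite strand, which was at 12.6 and 13.5 against 11.4 and 11.8 FPKM. The part of this overlap in the Igfbp7 values was not tested. Endothelial markers were near 0 in both genotypes. Pecam1 was at 0.506 and 0.371 FPKM in controls against 0.611 and 0.458 in knockouts and did not pass the test (limma adjusted p = 0.651), Emcn was listed at 0 in all 4 libraries, and Pecam1 was the 1 of 7 endothelial genes with enough signal to be tested. For 6 pericyte and smooth muscle genes the summed FPKM was 10.7 and 11.7 against 20.7 and 12.8, and 0 of the 3 tested were called by limma, with 1 higher at an unadjusted p under 0.05. In 6 of the 14 alternatives 1 of these genes was called higher, Cspg4 in 5 of them and Acta2 without the second knockout library (both named after their values were seen), and the part of such cells in the Igfbp7 values was not tested.

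Igfbp6 encodes the binding protein with the strongest preference for IGF-2 over IGF-1 (ENSMUSG00000023046.6, chromosome 15, 102144362 to 102149511, plus strand). It was at 1.45 and 1.10 FPKM in controls against 4.65 and 4.05 in knockouts. The groups are separate at low levels on both sides. The mean was 3.42 times higher, 1.27 ± 0.245 against 4.35 ± 0.428 (SD, n = 2 each), with a log2 difference of 1.24 (standard error 0.14), which is less than the log2 of that ratio because 1 was added to each FPKM.

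Igfbp4 encodes a binding protein that generally inhibits IGF action and is cut by the protease PAPP-A (ENSMUSG00000017493.12, chromosome 11, 99041244 to 99054392, plus strand). It was at 4.67 and 6.55 FPKM in controls against 11.6 and 13.7 in knockouts, again without overlap. The mean went from 5.61 ± 1.33 to 12.7 ± 1.52 FPKM (SD, n = 2 each), 2.26 times higher, with a log2 difference of 1.06 (standard error 0.16). Tns4, a tensin gene whose end lies 11285 bases from that of Igfbp4, rose from 13.4 and 15.8 to 53.5 and 83.0 FPKM (log2 difference 2.12, limma adjusted p = 0.00123), while Top2a on the other side fell (log2 difference -0.50, limma adjusted p = 0.0107).

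Igfbp3 encodes the main carrier of IGFs in blood, and in skin it is known from the basal epidermis (ENSMUSG00000020427.11, chromosome 11, 7206086 to 7213923, minus strand). It was at 5.15 and 3.99 FPKM in controls against 5.66 and 4.71 in knockouts. The groups overlap, with a log2 difference of 0.15 (standard error 0.15). Its neighbour Igfbp1, 3539 bases away, was listed at 0 in all 4 libraries.

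**Figure D2:**
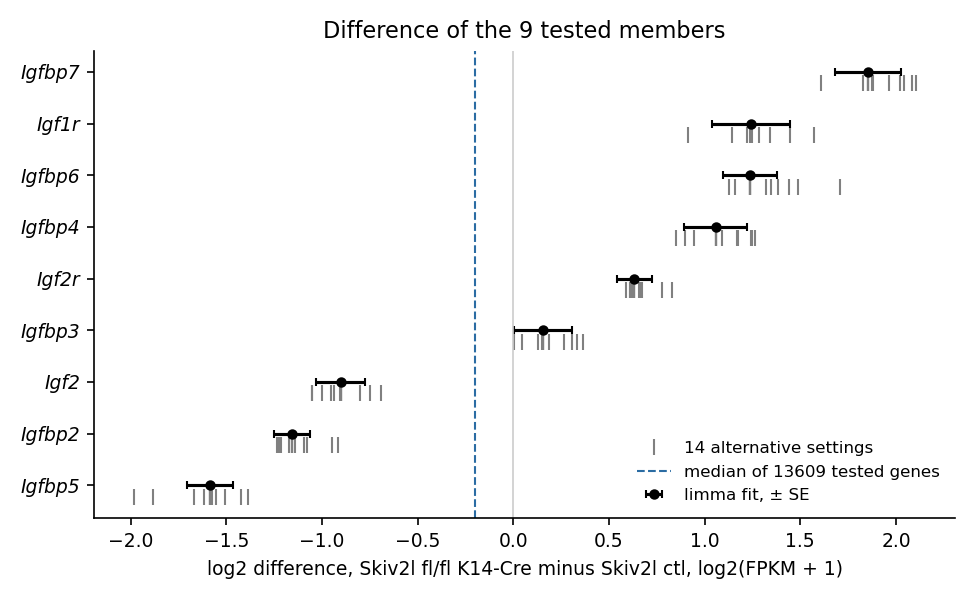
Log2 difference, Skiv2l fl/fl K14-Cre minus Skiv2l ctl, on the log2(FPKM + 1) scale for the 9 tested genes (point, value; bar, standard error; grey ticks, 14 alternative settings; dashed line, the median of 13609 tested genes at -0.20). Igfbp7 lies highest at 1.86 and Igfbp5 lowest at -1.59, and the ticks of each gene lie on the same side of 0 as its point.

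By FPKM, the order of the levels in the controls was Igf2, Igfbp2, Igf1r, Igf2r, Igfbp5, Igfbp4, Igfbp3, Igfbp7, Igfbp6 and Igf1 from high to low by the mean. Within it, the values of Igfbp4 and Igfbp3 overlap, as do those of Igfbp3 and Igfbp7, so these neighbours do not differ beyond the spread between pups. In the knockouts the order was Igf2, Igfbp2, Igf1r, Igf2r, Igfbp7, Igfbp4, Igfbp3, Igfbp6, Igfbp5 and Igf1, and the values of Igfbp2 and Igf1r overlap. Igfbp5 thus stood first after the receptors in the controls and below every other IGFBP in the knockouts, while Igfbp7 stood directly above Igfbp6 in the controls and directly below the receptors in the knockouts. By coverage, divided by the usual ratio of each library, the order in the controls was Igf2, Igf2r, Igfbp5, Igf1r, Igfbp2, Igfbp7, Igfbp3, Igfbp4, Igfbp6 and Igf1, where the values of Igf1r and Igfbp2 overlap, as do those of Igfbp7 and Igfbp3. In the knockouts it was Igf2, Igf2r, Igfbp7, Igf1r, Igfbp4, Igfbp6, Igfbp3, Igfbp2, Igfbp5 and Igf1, where Igfbp7 and Igf1r overlap, as do Igfbp4 with Igfbp6 and Igfbp6 with Igfbp3. Igf2 stood first and Igf1 last in both units.

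Seen as a pool, the 6 IGFBP genes had a different makeup in the 2 genotypes. Their FPKM summed to 132.7 and 122 in controls against 84.1 and 89.5 in knockouts. Igfbp2 made up 83.3% and 80.9% of that sum in controls against 52.6% and 54.2% in knockouts. Igfbp7 made up 2.31% and 3.87% in controls against 19.2% and 18.7% in knockouts. The share of Igfbp2 was thus lower and that of Igfbp7 higher in both knockouts. Igfbp4 made up 3.52% and 5.36% in controls against 13.8% and 15.3% in knockouts. Igfbp5 made up 5.90% and 5.65% in controls against 2.19% and 1.92% in knockouts. Without Igfbp2, the FPKM of the other 5 genes summed to 22.2 and 23.3 in controls against 39.9 and 41.0 in knockouts, 1.78 times higher.

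The direction of the total, and which gene led the pool, depended on the unit. For Igfbp2 the ratio of coverage to FPKM was only 0.301 to 0.320, against a usual ratio of 5.843 to 6.274. It was 2.05 to 2.27 for Igfbp4, 2.06 to 2.50 for Igf2, 1.78 to 1.98 for Igf1r and 1.01 to 3.07 for Igf1. It was 4.49 to 4.80 for Igfbp3 and nearer to the usual ratio for Igfbp5, Igfbp6, Igfbp7 and Igf2r. Dividing coverage by the usual ratio of each library put Igfbp2 at 5.74 and 5.05 in controls against 2.29 and 2.46 in knockouts, on the scale of FPKM. On this scale the 6 genes summed to 23.2 and 22.8 in controls against 32.6 and 32.7 in knockouts, 1.42 times higher, where the FPKM sum was lower. Igfbp5, at 33.3% and 30.2%, was then the largest share in the controls, and Igfbp7, at 47.0% and 48.8%, the largest in the knockouts. The direction of each single IGFBP gene was the same in both units, and the 5 and 3 calls were kept with this coverage in place of FPKM, an alternative chosen after seeing the data. Igfbp2 led the control pool by FPKM, whereas by coverage no gene held most of it and Igfbp7 held nearly as much of the knockout pool as the other 5 genes together. Why the units differ for Igfbp2, Igfbp4, Igf2, Igf1r and Igf1 was not tested.

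**Figure D3:**
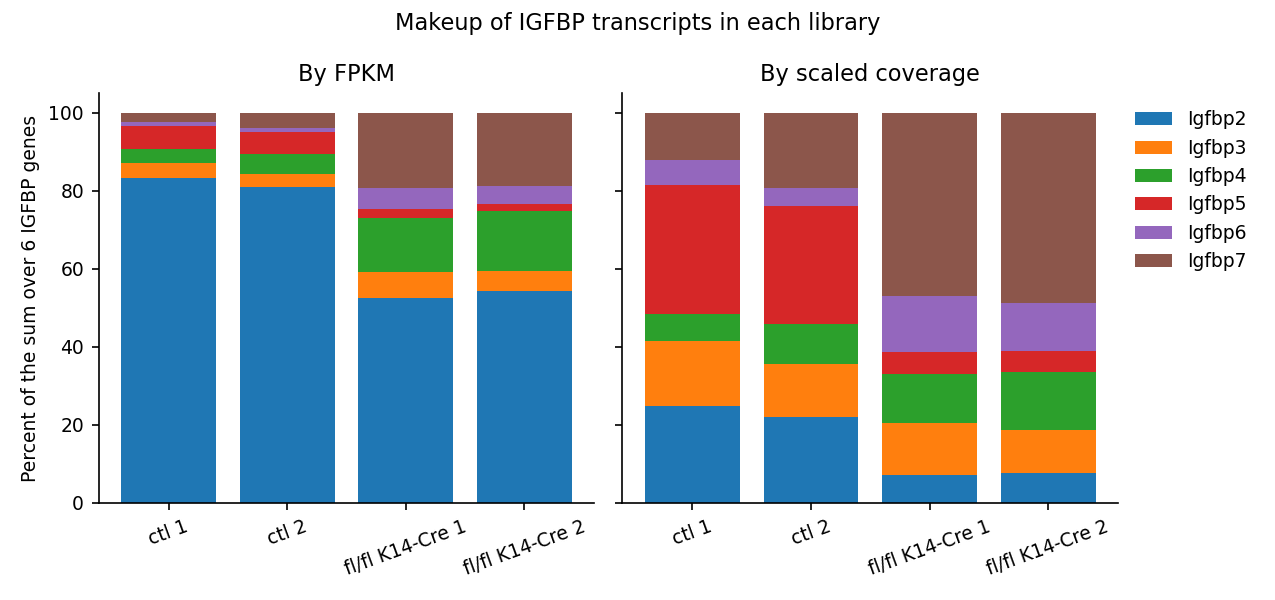
Share of each of 6 IGFBP genes in their sum, in percent, as 1 stacked bar per pup (left panel, FPKM; right panel, coverage divided by each library's usual ratio of coverage to FPKM). Igfbp2 takes 83.3% and 80.9% of the FPKM in controls against 52.6% and 54.2% in knockouts, while by coverage Igfbp7 takes 47.0% and 48.8% in the knockouts.

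The genes around the IGF axis were described through 8 lists of pathway genes, 92 genes in all, of which 72 were tested. The lists were chosen with earlier results of these data known, so their p-values are not free of that choice. Of these 11 rose and 21 fell in knockouts (limma, adjusted p under 0.05), and 40 did not pass the test, beside 8.99% of all tested genes higher and 25.4% lower. The split turned to 14 against 12 once libraries were set to a common median, and to 13 against 10 after quantile normalization, so the balance of the 2 directions rests on the scaling. Their median log2 difference was -0.16, beside -0.20 for all tested genes. With each library left out in turn, 6 of the 32 calls held each time, those of Irs1, Pik3r2, Stc2, Cat, Peg3 and Cdkn1c. Leaving out the first control ended 26 calls and the second 24, where Hmga2 and Sgce kept theirs. Leaving out the first knockout ended 8 calls (among them Ctgf, Gga2, Gnptg, Grb10, Grb14, Igfals and Phlda2) and the second 10 (Adam9, Adam12, Ctgf, Gnptg, Grb10, Grb14, Igfals, Pik3ip1, Pik3r3 and Zim1).

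Proteases and their inhibitors set how long an IGFBP holds its ligand. Of 10 genes listed, 8 were tested, 3 rose and 1 fell, beside 8.99% of all tested genes called higher and 25.4% lower. Stc2, which encodes stanniocalcin 2, an inhibitor of the PAPP-A protease, rose from 0.742 and 0.601 to 6.01 and 8.69 FPKM, 10.9 times on the mean (log2 difference 2.30, standard error 0.18, limma adjusted p = 0.000659). Its rise was the largest among the 72 genes. Pappa, the protease itself, was at 0.220 and 0.346 against 0.540 and 0.499 FPKM and did not pass the test (limma adjusted p = 0.234), nor did Stc1, the other stanniocalcin gene (limma adjusted p = 0.414). Htra1, a secreted serine protease with an IGFBP domain, rose from 36.9 and 41.4 to 54.1 and 52.8 FPKM (log2 difference 0.44, limma adjusted p = 0.0145). Adam9 rose from 6.89 and 7.25 to 9.27 and 10.6 FPKM and Adam12, another metalloprotease reported to cut IGFBPs, fell from 1.19 and 1.37 to 0.512 and 0.410 (limma adjusted p = 0.0271 and 0.0185). The rise of Htra1 and Adam9 and the fall of Adam12 did not hold without the first control library (limma adjusted p = 0.108, 0.170 and 0.0612). Htra3 at 0.501 and 0.901 against 1.17 and 0.902 FPKM and C1s1 at 1.48 and 1.70 against 1.65 and 1.69 were not called.

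Below the receptors, Irs1 fell and Irs2 rose. Of 28 genes of insulin and IGF receptor signalling, 26 were tested, 3 rose and 6 fell, counts near the 8.99% and 25.4% of all tested genes, and the median log2 difference was -0.18. Irs1, the adaptor that links both receptors to PI3K, fell from 36.3 and 33.6 to 12.2 and 15.6 FPKM, 2.51 times (log2 difference -1.28, standard error 0.13, limma adjusted p = 0.00138). Irs2, its relative, rose from 11.98 and 13.6 to 19.5 and 27.1 FPKM (log2 difference 0.80, standard error 0.16, limma adjusted p = 0.0143). The ratio of Irs2 to Irs1 went from 0.330 and 0.406 in the controls to 1.59 and 1.74 in knockouts, so Irs2 was the minor of the pair in both controls and the major in both knockouts. Shc1, the adaptor towards the RAS pathway, rose from 21.9 and 22.6 to 32.5 and 33.2 FPKM (limma adjusted p = 0.00532). Grb10 and Grb14 encode adaptors that inhibit the receptors. Grb10 rose from 5.38 and 4.09 to 7.45 and 6.63 FPKM (limma adjusted p = 0.0431) and Grb14 fell from 0.740 and 0.668 to 0.130 and 0.0969 (limma adjusted p = 0.0225).

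The 3 listed genes for regulatory subunits of PI3K, Pik3r1, Pik3r2 and Pik3r3, fell. The largest was the fall of Pik3r2, from 60.5 and 62.2 to 32.0 and 27.9 FPKM (log2 difference -1.01, standard error 0.10, limma adjusted p = 0.00118), followed by Pik3r3 at -0.51 and Pik3r1 at -0.46. The falls of Pik3r1 and Pik3r3 did not pass the test when libraries were scaled to the same median or quantile normalized, under which the list had 4 genes higher and 3 or 2 lower. The kinase gene Akt1 was at 65.3 and 69.7 against 58.6 and 49.4 FPKM (limma adjusted p = 0.0604). Without the first control library Irs2, Shc1, Grb10 and Grb14 lost their call (limma adjusted p = 0.117, 0.0652, 0.0846 and 0.0669), as did Pik3r1 and Pik3r3, and Irs1 and Pik3r2 kept it (0.0341 and 0.0289).

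**Figure D4:**
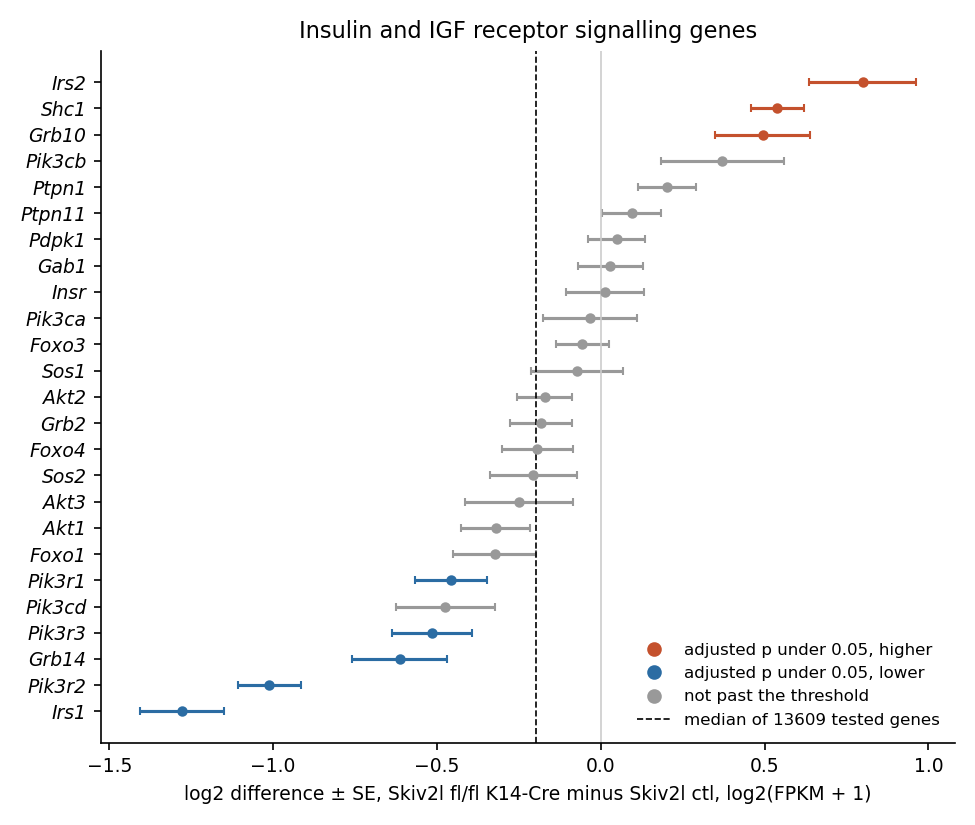
Log2 difference with its standard error, Skiv2l fl/fl K14-Cre minus Skiv2l ctl, on the log2(FPKM + 1) scale for 25 of the 26 tested genes of insulin and IGF receptor signalling (orange, called higher; blue, called lower; grey, not past the threshold; dashed line, the median of all tested genes at -0.20). Irs1 at -1.28 and Irs2 at 0.80 stand at opposite ends.

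FoxO factors are held out of the nucleus when AKT is active, and the list of their known target genes had 12 tested members. In limma 0 of the 12 rose, also at an unadjusted p under 0.05, beside 8.99% of all tested genes called higher. Of the 12, 4 fell, beside 25.4% of all tested genes, and 8 did not pass the test. Without the first knockout library, however, 4 were called higher (Bcl6, Ccng2, Cited2 and Sesn1, named after their values were seen) and 5 lower, and with the replicate block 1 was called higher. Cat, which encodes catalase, fell from 69.3 and 76.3 to 26.7 and 21.7 FPKM (log2 difference -1.56, standard error 0.12, limma adjusted p = 0.000632). Txnip, an inhibitor of thioredoxin and glucose uptake, fell from 129 and 117 to 83.6 and 67.1 FPKM (limma adjusted p = 0.0089), Sesn3, a sestrin, from 6.91 and 6.99 to 4.04 and 3.95 (limma adjusted p = 0.00575), and Pik3ip1 had a log2 difference of -0.45 (limma adjusted p = 0.0483). The median of the list was -0.16, close to the -0.20 of all genes, and was 0.03 with median scaling and 0.02 with quantile normalization, where 3 genes fell. Txnip, Sesn3 and Pik3ip1 lost their call without the first control library (limma adjusted p = 0.0868, 0.0745 and 0.159).

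The genes of the proteins that bind Igf2 mRNA differed in direction. With Hmga1 and Hmga2, 5 genes of this list were tested. Of these 3 rose and 1 fell, beside 8.99% and 25.4% of all tested genes. Igf2bp1 rose from 8.21 and 8.17 to 13.5 and 13.6 FPKM (log2 difference 0.66, limma adjusted p = 0.00389) and Igf2bp2 from 13.3 and 13.5 to 19.5 and 22.3 (0.60, limma adjusted p = 0.00779). Igf2bp3 fell from 21.5 and 21.7 to 14.8 and 14.6 FPKM (-0.52, limma adjusted p = 0.0066). Of the 3 it was the most abundant in the controls. Hmga2, a chromatin protein that promotes Igf2bp2 expression in the embryo, rose from 2.71 and 3.12 to 7.46 and 6.02 FPKM (0.98, limma adjusted p = 0.00421). Hmga1 did not pass the test (0.11, limma adjusted p = 0.340), and Lin28a was listed at 0 in all libraries. None of the 4 calls held without the first control library (limma adjusted p = 0.0567 to 0.080).

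Igf2, H19 and Igf2r belong to the imprinted genes that act on growth, and 10 of 12 others listed were tested, of which 3 rose and 4 fell, beside the 8.99% and 25.4% of all tested genes. Cdkn1c, a maternally expressed inhibitor of the cell cycle from the same imprinted region as Igf2, rose from 3.29 and 3.61 to 7.74 and 9.32 FPKM (log2 difference 1.09, standard error 0.13, limma adjusted p = 0.00227). Plagl1, a zinc finger factor known to activate Igf2, H19 and Cdkn1c, fell from 34.3 and 36.2 to 20.7 and 14.8 FPKM (-0.97, standard error 0.15, limma adjusted p = 0.00634). Peg3, a paternally expressed zinc finger gene, fell from 40.7 and 37.7 to 19.6 and 20.1 FPKM (-0.95, limma adjusted p = 0.00108), and Sgce from 2.74 and 2.28 to 0.948 and 1.11 (-0.79, limma adjusted p = 0.00915). Igf2, H19 and Plagl1 were therefore all lower while Cdkn1c was higher. Phlda2 and Grb10 also rose and Zim1 also fell. The non-coding Meg3 was at 2.91 and 1.52 FPKM in controls against 4.31 and 5.09 in knockouts. Plagl1 and Sgce lost their call without the first control library (limma adjusted p = 0.0653 and 0.0720), as did Phlda2, Grb10 and Zim1, and Cdkn1c and Peg3 kept theirs.

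The counts in the remaining lists also stand beside 8.99% of all tested genes called higher and 25.4% lower. Of 14 genes for other proteins with an IGFBP domain, 6 were tested, Htra1 rose, and Crim1 and Ctgf fell, from 12.1 and 12.4 to 8.74 and 8.52 and from 7.71 and 6.31 to 4.64 and 4.95 FPKM (limma adjusted p = 0.0139 and 0.0354). Of 7 genes of mannose 6-phosphate sorting, the other task of the Igf2r protein, Gga2 and Gnptg fell (limma adjusted p = 0.0197 and 0.0448), and 0 rose by limma, with 1 higher at an unadjusted p under 0.05. M6pr, the smaller mannose 6-phosphate receptor, was at 20.1 and 21.5 against 24.6 and 25.4 FPKM (log2 difference 0.26, limma adjusted p = 0.0654), beside 0.63 for Igf2r, and it was called higher with median scaling (limma adjusted p = 0.0126) and with quantile normalization (0.0272). Igfals, which encodes the third partner of the circulating IGF complex, fell from 2.16 and 1.76 to 1.20 and 0.985 FPKM (limma adjusted p = 0.0421) and was the 1 tested gene of 5 in its list. The falls of Crim1, Ctgf, Gga2, Gnptg and Igfals did not pass the test under either scaling, nor without the first control library.

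Some markers of several cell types were lower in knockouts together with Igf2, H19, Igfbp2 and Igfbp5. Of all tested genes 25.4% were called lower and 8.99% higher, and 55.3% had both knockouts below both controls. Of the 10 fibroblast genes 6 were tested and 3 fell, whereas with median scaling or quantile normalization 2 were called lower and 1 higher. Postn and Dcn made up most of the summed fibroblast FPKM, Postn at 107 and 95.3 against 45.6 and 60.6 and Dcn at 57.0 and 62.7 against 16.9 and 21.4, while the defining collagen gene Col1a1 was at 0.614 and 0.891 against 1.27 and 0.585 FPKM. Of 9 hair follicle genes 6 fell and 1, Krt17, rose, and the summed FPKM, to which Krt17 gives the most, was 729 and 811 against 1648 and 1465. Shh, the follicle signal, was at 11.7 and 12.6 against 2.39 and 2.82 FPKM. Of 8 leukocyte genes 5 were tested and 3 fell, with summed FPKM of 27.9 and 34.0 against 15.0 and 13.7, and 4 of 5 erythroid genes fell, with 134 and 125 against 62.0 and 80.7. Without a filter 1 fibroblast, 2 hair follicle, 2 leukocyte and 0 erythroid genes were called lower, beside 927 of 21921 protein-coding genes. The part of such cells in the differences of the IGF axis genes was not tested.

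Basal keratinocytes, which express keratin 14, are the main epidermal site of the type 1 receptor. The 7 basal keratinocyte genes summed to 4729 and 4891 FPKM in controls against 9798 and 9795 in knockouts, with 2 called higher and 1 lower, while their median log2 difference was -0.08, since Krt14 makes up most of the sum in knockouts. Of 6 suprabasal genes 2 fell, and the list summed to 27267 and 28291 against 18921 and 21915. Of 5 adipocyte genes Fabp4 alone rose, from 1.78 and 1.45 to 55.8 and 57.8 FPKM, and Adipoq and Cidec, which define adipocytes, were listed at 0 in all libraries. Skeletal muscle genes summed to 0.315 to 0.849 and none of 5 was tested. Melanocyte genes summed to 52.4 and 59.6 against 55.1 and 67.5, with 1 of 5 called higher, and 6 Schwann and Merkel cell genes summed to 11.5 and 11.5 against 8.001 and 10.6, with 0 of the 5 tested called by limma 2 lower at an unadjusted p under 0.05 and at least 1 called lower in 5 of the 14 alternatives. The counts in these lists stand beside 8.99% of all tested genes called higher and 25.4% lower. Without a filter 0 of the basal, suprabasal and melanocyte genes were called. The part of these markers in the differences of the IGF axis genes was not tested.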

How the data were processed

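Total RNA from the epidermis of 4 pups, 2 per genotype, was sequenced, and the reads were processed by the authors with a workflow at their institution. The aligner, read length and strandedness are not given in the sources used here, and the build per the labels is GRCm38. FPKM as deposited counts fragments relative to transcript length and library size. TPM, also deposited, has the same sum in every library, and coverage as deposited is the mean depth per base. FPKM was summed per gene identifier. Biotypes came from GENCODE M21 by identifier without version, which matched 54723 of 54752 genes.

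Following the study's filter, protein-coding genes were kept where any library exceeded an FPKM of 0.5, which left 13609. Values were transformed to log2(FPKM + 1) and fitted in limma 3.58.1 (R 4.3.3) by lmFit and eBayes, the latter including a trend. Tests were two-sided, and p-values were adjusted by the Benjamini-Hochberg method across these genes. A log2 difference understates the change of low genes. The fit was tested on simulated data. Read counts were not used, so counting error and floors are unknown, and 2 pups per genotype limit the precision. Groups came from the genotype labels. Replicate numbers come from the labels, which do not say that they pair pups.

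The members and lists were chosen with earlier results of these data known. Genes named are all members, the targeted gene, H19 and other RNAs of the Igf2 and Igf2r regions, up to 4 called genes per pathway list with the largest differences, list genes whose product acts on a member, and up to 3 genes per marker list. Genes outside that rule, such as neighbours of members, were chosen after their values were seen. The 13 other settings tried were TPM, libraries scaled to the same median, quantile normalization, a pseudocount of 0.1, no filter, a filter of FPKM above 1 in 2 or more libraries, all gene types, no trend, a replicate block, and each library left out. Coverage was added after seeing the data. Sequences are from RefSeq. In the plot of receptor signalling genes, 1 tested gene is not reported here.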

Additional observations from a re-analysis of the deposited data

How the results depend on the processing

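With the 13 other settings and with coverage, no log2 difference of the 9 tested IGF axis genes changed direction. Another or no FPKM filter, all gene types, no trend and the replicate block leave each difference as it is. These settings could not change a direction, nor could the pseudocount or leaving out a library for genes whose groups do not overlap. Igfbp2 ranged from -1.24 to -0.92, Igfbp5 from -1.99 to -1.39 and Igfbp7 from 1.61 to 2.10, and Igfbp3 from 0.00 to 0.36. The 5 members called higher and 3 lower remained 5 and 3 in number except without a filter, where 1 and 2 were called (Igf2r, Igfbp2 and Igfbp5), and without a control library. Leaving out each library gave 2 to 5 members higher and 2 to 3 lower. Of the 11 pathway genes higher and 21 lower, leaving out each library gave 2 to 15 and 4 to 17. The lowest values were without the first control (2 and 4) and then the second (3 and 5), where the remaining control is assumed to vary like the knockouts. Without a filter 3 pathway genes were higher and 9 lower. Scaling to the same median left 12 lower and quantile normalization 10. The cause of these changes was not tested. With the replicate block 5 and 3 members and 12 and 21 pathway genes were called, and the differences between pups 1 and 2 correlated at -0.077 between genotypes over 13609 genes, so the numbers were read as names only. The number of reads behind low values, such as those of Igf1, is unknown.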

Other observations

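The genes that flank the 10 IGF axis genes on the chromosome were read from the annotation as a description. Of 18 flanking genes that are no members, 11 were tested, 2 rose and 4 fell (limma, adjusted p under 0.05), beside 8.99% and 25.4% of all tested genes. Soat2, a sterol acyltransferase gene that begins 1014 bases after the end of Igfbp6, rose from 0.0457 and 0.0031 to 0.759 and 0.610 FPKM (log2 difference 0.72, limma adjusted p = 0.0157), while Spryd3 on the other side of Igfbp6 was at 11.1 and 12.4 against 10.8 and 9.59 (limma adjusted p = 0.228). Ttc23, 189914 bases from Igf1r, fell from 13.8 and 13.6 to 6.44 and 6.29 FPKM (limma adjusted p = 0.00115), opposite to Igf1r. Pgpep1l, 2941 bases from Igf1r on the other side, had a log2 difference of 0.32. It was not called (limma adjusted p = 0.283), and its groups overlap. Mrpl23, the nearest coding neighbour of Igf2 beyond H19, fell together with both (log2 difference -0.48, limma adjusted p = 0.0114).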
